A study of Mus musculus with 4 samples.

Results

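The cytosolic ribosomal protein genes were examined in 4 RNA-seq libraries of cells labelled CD4+ T cells from inflamed mouse skin. Members were the genes whose symbol has the form of a large subunit (Rpl, Rplp) or small subunit (Rps) protein name. The name pattern took 88 of the 55335 genes counted, 53 of the large and 35 of the small subunit. The pattern also took 6 genes that GENCODE M21 calls processed pseudogenes (Rpl32l, Rpl6l, Rps12l1, Rps3a2, Rps3a3 and Rps4l), which held 1011 of 166663 member fragments (0.607%). It left out some genes of ribosomal proteins, among them Rack1 and Rpl36al, which are given with the related genes at the end.

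Controls were Mettl3fl/fl mice and knockouts were Mettl3fl/fl;Cd4-Cre mice, with 2 libraries each, so the floxed allele was present in every library. Cre under the Cd4 promoter is active from the stage at which developing T cells carry both CD4 and CD8, and so also in the CD8 lineage. All mice were 8 to 12 weeks old and received 5% imiquimod cream on the back for 5 days, 15 or 62.5 mg daily, and the sources used here do not say which mouse had which amount. No library came from untreated skin. The numbers 1 and 2 only name the libraries, and nothing states how many mice a library holds, so any p-value measures the spread between these libraries, which may be technical.

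The ribosome is built from ribosomal RNA and one copy of most of these proteins, whose genes are usually expressed together at high levels. Their messengers begin with a run of pyrimidines, the 5′ terminal oligopyrimidine (TOP) motif, through which mTOR and LARP1 adjust their translation. Many of the genes carry small nucleolar RNAs in their introns. METTL3 is the catalytic subunit of the enzyme that places N6-methyladenosine on messenger RNA.

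Library totals ran from 3614418 to 4537006 fragments, and 3 fragments corresponded to 0.655 to 0.792 CPM (fragments scaled to a common library size with TMM factors, the unit of all levels below). These limits cover counting error only. Mettl3 itself held 195 and 49 fragments in controls 1 and 2 and 121 and 158 in knockouts 1 and 2. The sources used here do not give the deleted exons, so this sum does not check the genotype. The 12 T cell markers took 0.106% and 0.0346% of fragments in controls 1 and 2 and 0.0281% and 0.0157% in knockouts 1 and 2. For 15 macrophage and monocyte markers the shares were 1.97% and 1.04% in the controls, against 2.75% and 2.74% in the knockouts. Neutrophil markers took 0.0485% and 0.0336%, against 0.172% and 0.120%, and fibroblast markers 1.58% and 0.362%, against 0.622% and 0.699%. Both myeloid shares were thus higher, and the T cell share lower, in both knockouts, and their part in the results was not tested. Keratinocyte markers took 3.17% in control 2 and 0.147% to 0.298% in the other libraries, and control 2 held 11424 genes with a fragment against 16273 to 20100 in the others. In bulk libraries, fewer cells of a type and less RNA per cell cannot be told apart.

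The start sites were searched for runs of pyrimidines. RefSeq start sites (GRCm38.p6) were found for 63 of the 88 members, 75 starts in all. The sequences below run from 20 bases before the start to 15 bases from it, 5′ to 3′ on the gene's strand, with the longest run of at least 8 C or T in capitals. They were chosen to show members with a run across or beside the start and abundant or extreme members without one.
Rps18, small subunit head, chr17:33955651-33955685, minus strand: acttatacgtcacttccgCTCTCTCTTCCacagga
Rps6, target of S6 kinase, chr4:86857353-86857387, minus strand: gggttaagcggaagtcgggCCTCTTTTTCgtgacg
Rpl15, large subunit, chr14:18270972-18271006, minus strand: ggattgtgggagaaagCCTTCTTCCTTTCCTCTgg
Rplp2, stalk, chr7:141447631-141447665, plus strand: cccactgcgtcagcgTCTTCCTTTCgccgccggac
Rpl22l1, paralogue of Rpl22, chr3:28805488-28805522, plus strand: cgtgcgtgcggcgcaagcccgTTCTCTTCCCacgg
Rpl7l1, paralogue of Rpl7, chr17:46782642-46782676, minus strand: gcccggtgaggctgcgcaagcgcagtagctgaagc
Rps3, messenger entry, chr7:99483695-99483729, minus strand: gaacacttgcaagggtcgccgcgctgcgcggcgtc
Rplp0, stalk base, chr5:115559447-115559481, plus strand: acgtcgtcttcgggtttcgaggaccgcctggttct

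Across the 75 starts, a run of at least 8 C or T on the gene's strand, from 20 bases before to 30 bases from the start, was present at 36 (48.0%), against 19.0% of all 32851 starts in the table. On the other strand such a run was present at 6 member starts (8.0%) and 21.9% of all starts. The letters CTTTC, which can lie inside such a run, were present on the gene's strand of the same window at 21 starts (28.0%) against 6.57%, and on the other strand at 7 (9.33%) against 6.30%. CCGGAA, a core of ETS family binding sites, was present on either strand of the 300-base window at 35 starts (46.7%) against 14.9%. A match describes these letters only, and the RefSeq start need not be the start used in these cells.

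Exon counting shaped what could be seen of every member. Per the file headers, fragments were assigned to exon entries, and in all 4 libraries an entry that shared its coordinates with another held 0 fragments. The members have 1997 entries, of which 1056 (52.9%) share their coordinates, and 321 (16.1%) held a fragment, against 8.14% of all entries. Only 88203 of the 174571 exonic bases of the members (50.5%) are covered by a single entry, against 60.7% over all genes. The members have a median of 20.5 entries, up to 107 in Rpl13a, of which a median of 4 held fragments.

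Exons annotated only in retained-intron transcripts, in which an intron stays in the RNA, held 39.9% of member fragments, against 8.30% of the fragments of all genes. Exons of protein-coding transcripts alone held 55.3%, and those of processed transcripts 4.16%. Retained-intron exons held more than 50% of the fragments of 42 members, and 19 members with fragments had none in protein-coding exons. Rps3, whose product lines the messenger entry channel, had 81.6% of its 9799 fragments in them, and the entry with the most spans 2899 bases (chr7:99478893-99481791, GRCm38). Rpl3 (3197 fragments, peptidyl transferase neighbourhood) had 100% there and Rpl7 99.8%. For such genes the level describes RNA over annotated introns as well as messenger, and the origin of these fragments was not tested. Small nucleolar RNA genes lie inside 29 members (33.0%), up to 5 in Rpl4, against 1.19% of protein-coding genes. Retained-intron entries that overlap one held 26797 of the 66523 fragments in member retained-intron exons (40.3%).

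Rplp1, Rpl36 and Rps3a1, along with 4 pseudogenes, held fragments and had every exonic base covered by a single entry. Only for them could a level be set per kilobase of the whole gene. Rplp1, of the stalk that recruits elongation factors, had 1229 and 3057 CPM per kilobase in controls 1 and 2 and 941 and 1464 in knockouts 1 and 2. For Rpl36 the levels per kilobase were 879 and 2384 in the controls, against 770 and 1189 in the knockouts. Rps3a1 had 906 and 2365 in the controls, against 844 and 1164 in the knockouts. All 3 were highest in control 2 and lowest in knockout 1.

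The members took more of the RNA in the second library of each genotype than in the first. They held 0.798% of control 1 fragments (95% exact binomial interval 0.789% to 0.806%) and 1.59% of those of control 2 (1.58% to 1.60%). Among knockouts the share was 0.631% for library 1 (0.624% to 0.639%) and 1.05% for library 2 (1.04% to 1.06%). Their summed level was 7899, 15178, 6802 and 10809 CPM for controls 1 and 2 and knockouts 1 and 2, or 11539 ± 5147 in controls and 8805 ± 2833 in knockouts (SD, n = 2). Control 2 exceeded control 1 by 1.92 times and knockout 2 exceeded knockout 1 by 1.59 times, while the knockout mean was 0.763 of the control mean. The genotypes overlapped, since knockout 2 lay between the controls. Mitochondrially encoded genes took 2.76%, 7.98%, 2.29% and 4.39% of fragments, the same order of libraries, and their part in the result was not tested.

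Large subunit genes, 53 against 35 of the small subunit, took the greater part in every library. Sums over unequal numbers of genes do not compare the level of a single gene. Large over small subunit fragments were 1.69 and 1.61 for controls 1 and 2, and 1.74 and 1.49 for knockouts 1 and 2. The genotype means were 1.65 ± 0.0621 and 1.62 ± 0.174 (SD, n = 2), a difference smaller than the spread between the knockouts. With 2 libraries a genotype an exact permutation test cannot go below p = 0.333, and no p is given for a sum over members. Small subunit genes made up 37.1% (36.6% to 37.6%), 38.4% (37.97% to 38.8%), 36.5% (35.9% to 37.1%) and 40.1% (39.7% to 40.6%) of member fragments in that order, so knockout 2 had the largest small subunit share.

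The ratio depended on the kind of exon. In protein-coding exons alone it was 2.25, 1.87, 2.14 and 2.01, and in retained-intron exons alone 1.24, 1.29, 1.39 and 1.15, in controls 1 and 2 and knockouts 1 and 2. A few genes carried much of each sum, and the 5 members with most fragments held 38.3% to 48.8% of member fragments. Small subunit protein-coding exons held 6074, 12410, 4713 and 7342 fragments in controls 1 and 2 and knockouts 1 and 2. Of these, the Rps3a1 exon at chr3:86139040-86139248 held 1264, 2755, 1026 and 1562. Its exon at chr3:86141239-86141426 held 1260, 2460, 1122 and 1544. The protein-coding ratio thus leans on few genes. Among the 75 members that passed the filter on low counts, the median level of large subunit genes was 45.8, 82.9, 38.7 and 64.5 CPM, and of small subunit genes 30.1, 52.5, 26.7 and 50.4 CPM. Over all 88 members, however, the median in control 2 was 34.8 CPM for large and 50.7 for small subunit genes.

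**Figure D1:**
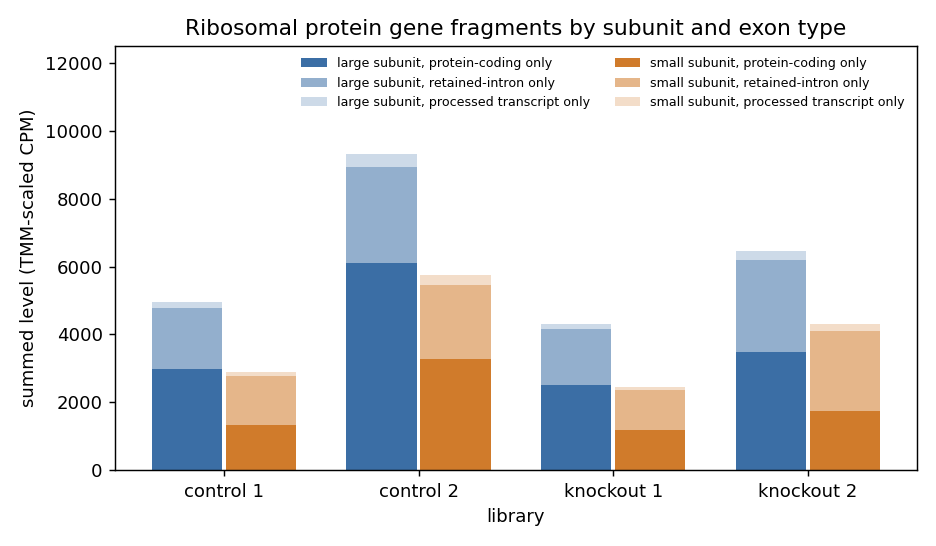
Summed level of the 53 large subunit (blue) and 35 small subunit (orange) genes in each library, in TMM-scaled CPM. Bars are stacked by the transcript type of the exons that held the fragments. Fragments in exons of processed pseudogenes and of nonsense-mediated decay transcripts are not drawn. Control 2 has the tallest bars. Over all exon types, those not drawn included, the large subunit sum is 1.49 to 1.74 times the small subunit sum in every library.

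**Figure D2:**
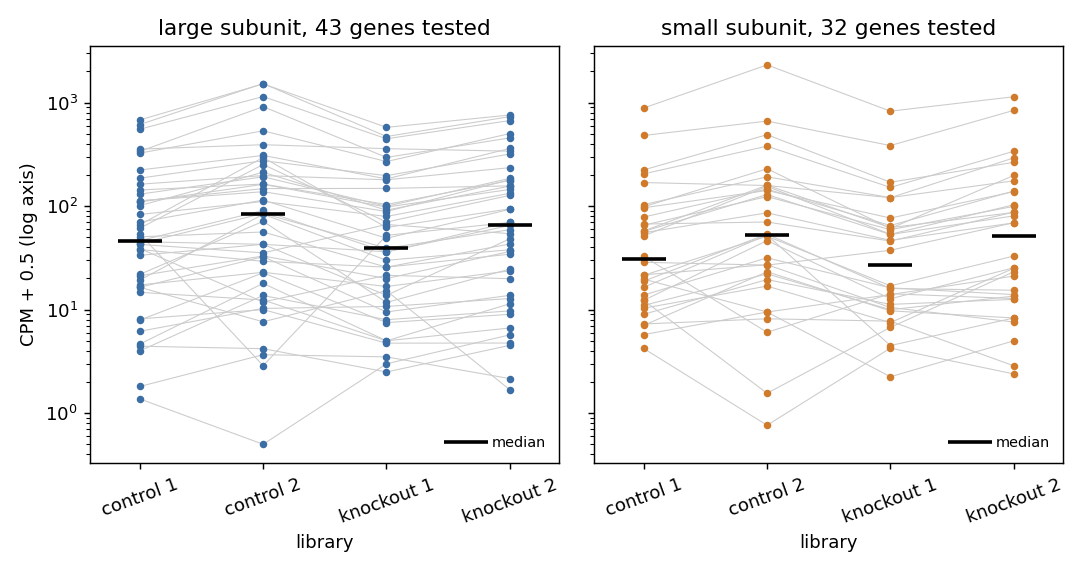
Level of each of the 43 large and 32 small subunit genes tested, as CPM + 0.5 on a log axis, with lines joining a gene across libraries and black bars for medians. Most genes lie higher in control 2 than in control 1 and in knockout 2 than in knockout 1.

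The 2 kinds of exon differed in how far apart the libraries of 1 genotype lay. Protein-coding exons of the members summed to 2.18 times as much CPM in control 2 as in control 1, and to 1.41 times as much in knockout 2 as in knockout 1. For retained-intron exons the same ratios were 1.56 and 1.80. Retained-intron exons thus made up 40.8%, 33.1%, 41.5% and 46.8% of member fragments in controls 1 and 2 and knockouts 1 and 2. The knockout mean was 0.651 of the control mean for protein-coding exons and 0.955 for retained-intron exons, and in both the genotypes overlapped. The protein-coding sums lean on few genes. Of their 19723, 35581, 14795 and 22071 fragments in that order, the Rplp0 exon at chr5:115563283-115563727 held 2426, 4202, 1693 and 2710.

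Differences between libraries of 1 genotype were shared by most members. Of 72 members with a mean of at least 20 fragments, 60 (83.3%) were higher in control 2 than in control 1, against 39.7% of 10200 genes at that depth, and 61 (84.7%) were higher in knockout 2 than in knockout 1, against 48.6%. The median log2 difference was 0.72 and 0.61, against -0.67 and -0.01 over those genes. Across the 72 members the 2 differences were hardly related (Pearson 0.091, Spearman -0.009, given as a description). Among the 39 with more than 50% of fragments in retained-intron exons, Pearson was 0.43 and Spearman 0.24. Among the 21 led in the same way by protein-coding exons, the values were -0.19 and -0.10. Exchanging the numbers 1 and 2 in 1 genotype would turn the sign of each correlation, so the signs carry no meaning.

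Some members went against this. Rpl23, a large subunit protein that binds MDM2, held 244 fragments in control 1 and 9 in control 2, and 207 and 292 in the knockouts. The small subunit gene Rps10 had 54 and 4 in the controls, against 25 and 96 in the knockouts. Both were lowest in control 2. Rpl26, at the exit tunnel, went the other way, with 5 and 94 fragments in the controls and 9 in each knockout. Of member entries with a mean of at least 5 CPM in the other 3 libraries, 11 of 117 held no fragment in control 2, against 1 of 130 in control 1, 2 of 132 in knockout 1 and 5 of 132 in knockout 2.

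**Figure D3:**
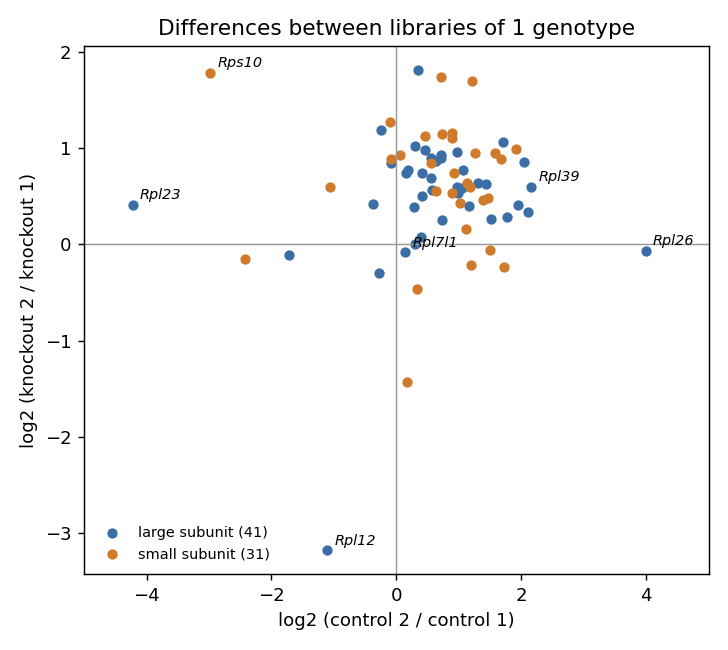
Log2 difference between control 2 and control 1 (x axis) and between knockout 2 and knockout 1 (y axis) for 72 members, coloured by subunit. Most points lie at the upper right, and the labelled Rpl23, Rps10 and Rpl12 lie to the left of it.

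No ribosomal protein gene was called different between knockout and control libraries. edgeR's quasi-likelihood test with Benjamini-Hochberg adjustment over 12434 genes called 0 of the 75 members tested and 0 genes in all (0% called), and the adjusted p of every member was 0.9997. Unadjusted p under 0.05 was reached by 0 members and by 187 genes (1.5%). DESeq2 and limma-voom also called 0 members. The remaining 13 members did not pass the filter on low counts, 10 of them with fragments, and these include Rpl17, Rpl19, Rpl23a, Rpl26, Rpl35 and Rpl38.

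Estimated changes were small for most members. The log2 fold change, knockout over control, was negative for 52 of 75 members (69.3%), against 43.1% of all genes tested, with a median of -0.30 (large -0.30, small -0.37) against 0.20 over all genes. Its standard error was taken as the size of the estimate over the square root of edgeR's F statistic. That error had a median of 0.93. Of the 75 estimates, 63 lay within 1 standard error of 0, which amounts to F below 1. Without control 2 the median was 0.17, with 25 of 77 negative, and without knockout 1 it was 0.06, so the direction rested on those libraries. Among the genes named by rule, members and related genes together, the estimates of 18 changed sign under at least 1 alternative fit. Eef1e1, among them, is not a member, and the count leaves out members not named by rule. Both knockouts lay above both controls for 5 members (Rpl15, Rpl22, Rpl34, Rpl37 and Rps9), against 19.5% of all genes, and below both for 8 (Rpl24, Rpl27, Rpl31, Rplp2, Rps14, Rps21, Rps23 and Rps29), against 11.2%. Control 2 was the highest library for 46 members, against 27% of all genes, knockout 2 for 22, against 23.6%, control 1 for 5, against 22.6%, and knockout 1 for 2, against 26.8%. Knockout 1 was the lowest for 45 members, against 15.7%, control 1 for 16, against 12.6%, control 2 for 9, against 56.5%, and knockout 2 for 5, against 15.1%.

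**Figure D4:**
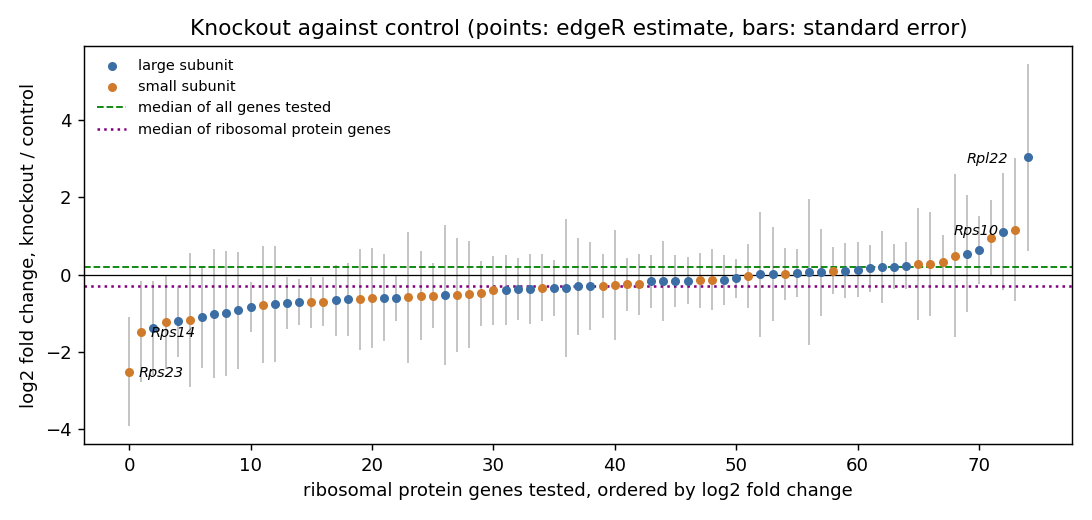
Log2 fold change, knockout over control, of the 75 members tested, in order of size, with standard errors derived from edgeR's F statistic. The dotted line is the members' median (-0.30) and the dashed line that of all genes tested (0.20). The bars of most members cross 0.

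The stalk, on which elongation factors dock, includes 2 of the large subunit genes with the highest mean CPM. Rplp1 (ENSMUSG00000007892, chr9:61913284-61914542, minus strand) had 613 and 1525 CPM in controls 1 and 2 and 469 and 731 in knockouts 1 and 2, a log2 fold change of -0.83 (SE 0.65). Rplp0, on which the stalk is built, had 552 and 1142 in the controls, against 447 and 669 in the knockouts (log2 -0.60, SE 0.60, and 0.0064 without control 2). In each gene knockout 2 lay between the controls. All 4 stalk and stalk base genes had a negative estimate, with a median of -0.68 (-0.96 to -0.38 over the alternative fits). With control 1, control 2 or knockout 2 left out in turn, 3 of 4 were negative, and without retained-intron exons 2 of 3. Rpl12, at the base of the stalk, had 73 and 27 fragments in the controls, against 59 and 5 in the knockouts. Retained-intron exons held 100% of its fragments and 75.3% of those of Rplp2.

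At the peptide exit tunnel, 4 of 10 listed genes passed the filter, and 3 of the 4 were negative (median -0.91). Without control 2 it was 3 of 6, with a median of 0.10. Rpl4 had 679 and 1515 CPM in the controls, against 576 and 757 in the knockouts (log2 -0.72, SE 0.60). Rpl39, a small protein of the tunnel wall, had 65.5 and 294 in the controls, against 61.6 and 93.6 in the knockouts, and its estimate of -1.21 (SE 0.92) became 0.24 without control 2. Rpl22, a large subunit protein with roles in T cell development, was near the limit of counting with 4 and 0 fragments in the controls, against 10 and 22 in the knockouts. For that gene the estimate of 3.03 had a standard error of 2.42, and all its fragments lay in processed-transcript exons.

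Near the subunit bridges and the peptidyl transferase centre, 1 of 5 genes was negative, but 4 of 5 were without knockout 2, 3 of 5 without control 1 and 3 of 3 tested without retained-intron exons (median -0.81). Rpl10, which is placed late in subunit maturation, had 186 and 274 CPM in the controls, against 196 and 318 in the knockouts. Rpl3 varied little, with 162 and 197 in the controls, against 179 and 235 in the knockouts. Of the 5S ribonucleoprotein, which restrains MDM2, Rpl11 had 69.4 and 114 in the controls, against 48.4 and 92.4 in the knockouts, and Rpl5 38.4 and 11.4 and then 20.97 and 19.4. Neither separated the genotypes. Rpl36 (ENSMUSG00000057863) had 337 and 913 in the controls, against 295 and 455 in the knockouts, and its estimate of -0.74 became 0.15 without control 2.

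Small subunit genes differed in which library was highest. Rps3a1 (ENSMUSG00000028081, chr3:86137940-86142702, minus strand), the member with the most fragments, had 885 and 2310 CPM in the controls, against 825 and 1138 in the knockouts (log2 -0.70, SE 0.64), and its estimate was 0.14 without control 2. Rps4x, an X-linked small subunit gene, was likewise highest in control 2, with 223 and 489 in the controls, against 169 and 264 in the knockouts. Rps3, by contrast, was highest in knockout 2, at 480 and 662 in the controls, against 384 and 840 in the knockouts (log2 0.10, SE 0.61), and its estimate was -0.43 without retained-intron exons. Rps2, also of the messenger entry site, had 168 and 158 in the controls, against 120 and 291 in the knockouts, likewise highest in knockout 2, with 96.3% of its fragments in retained-intron exons. Rps18, whose start is printed above, had 204 and 379 in the controls, against 151 and 338 in the knockouts.

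The lowest p among members was that of Rps23 (ENSMUSG00000049517, chr13:90922958-90924950, plus strand), a decoding-centre protein, at 0.130 before adjustment. Its level was 15.9 and 52.0 CPM in the controls, against 3.99 and 7.80 in the knockouts, so both knockouts lay below both controls (log2 -2.52, SE 1.41, edgeR). Without control 2 its estimate was -1.44. Rpl41, the smallest ribosomal protein, had 21.4 and 70.7 in the controls, against 11.2 and 24.1 in the knockouts. Rps9 was higher in both knockouts, at 28.2 and 26.4 in the controls, against 36.9 and 68.6 in the knockouts (log2 0.95, SE 0.99), and Rpl15 likewise, at 42.1 and 34.8 and then 65.9 and 53.7. Of the signalling-linked proteins, Rps6 had 66.6 and 69.7 in the controls, against 45.4 and 87.0 in the knockouts. Rps27a, made as a fusion with ubiquitin, had 51.1 and 154 in the controls, against 52.9 and 102 in the knockouts.

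**Figure D5:**
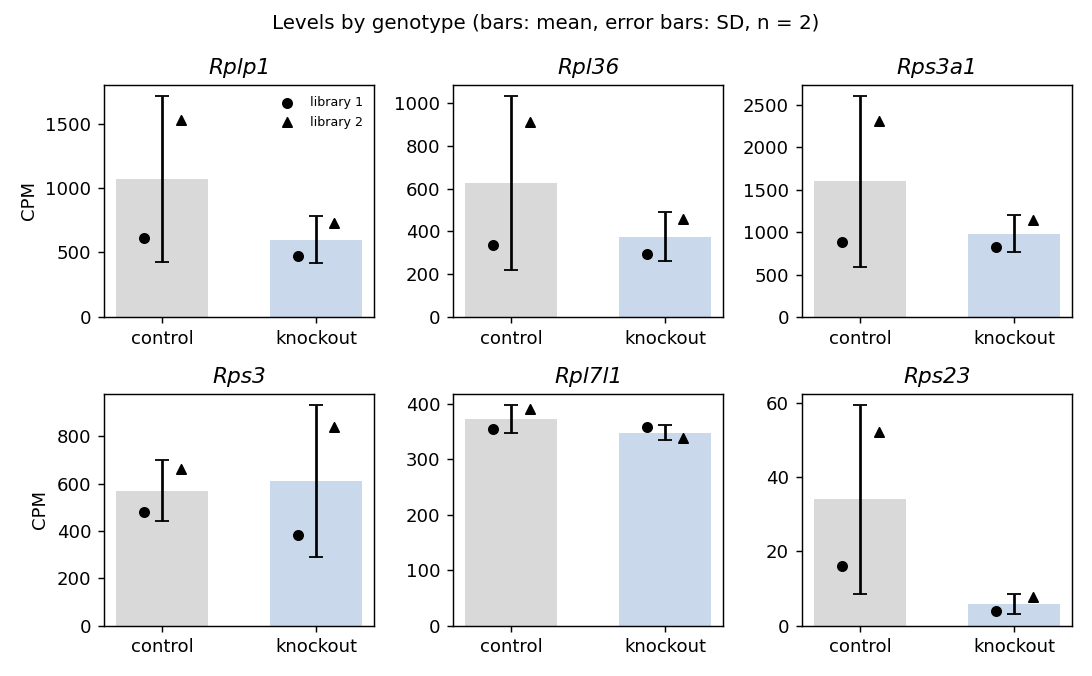
Level in CPM of 6 members by genotype, with bars for the mean, error bars for the SD (n = 2), circles for library 1 and triangles for library 2. Control 2 stands highest for Rplp1, Rpl36, Rps3a1 and Rps23, Rps3 is highest in knockout 2, and Rpl7l1 varies least.

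Paralogues differed widely in whether they could be seen. Rpl7l1, a paralogue of Rpl7, was the steadiest of the 6 members plotted, with 355 and 391 CPM in the controls, against 358 and 339 in the knockouts (373 ± 25.8 and 348 ± 13.7, SD, n = 2), while Rpl7 had 325 and 533 and then 269 and 501. Rpl22l1 had 60.7 and 252 in the controls, against 69.6 and 126 in the knockouts, all of it in 1 retained-intron entry. Rpl39l held 2, 0, 0 and 6 fragments, Rps27l 1, 0, 2 and 0 (its partner Rps27 31, 29, 29 and 10), and the pseudogene Rps4l 5, 5, 3 and 10, in controls 1 and 2 and knockouts 1 and 2. Rpl3l, typical of muscle, Rpl10l, typical of testis, and Rps12l1 held 0 fragments in every library. Near-identical copies are uncertain where fragments mapped to several places.

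Related genes outside the members also gave 0 calls. Of the ribosomal protein genes outside the name pattern, Rack1, which sits on the small subunit, had 296 and 387 CPM in the controls, against 219 and 466 in the knockouts. Rpl36al had 5.24 and 60.4 in the controls, against 6.24 and 4.02 in the knockouts. Over all genes 43.1% of estimates were negative. Negative estimates were found for 17 of 31 translation initiation factors, 4 of 9 genes of the elongation factor list and 27 of 36 ribosome assembly genes. The same held for 9 of 16 genes of RNA polymerase I and 4 of 15 genes that control TOP messengers. It also held for 7 of 10 small nucleolar RNA host genes and 34 of 65 mitochondrial ribosomal protein genes. Of these lists, the median kept 1 sign over the alternative fits only for ribosome assembly (-0.49 to -0.18) and TOP messenger control (0.01 to 1.16). Without control 1, where TOP messenger control stood at 1.16, the median over all genes was 1.72. The median of the 5 ribosomal protein genes outside the name pattern, 3 of them negative, also stayed negative (-2.17 to -0.04). Eif4e, the cap-binding protein, had 480 and 388 in the controls, against 965 and 884 in the knockouts (log2 1.09, SE 0.49, unadjusted p 0.0739 by edgeR). Rrp12, a subunit export factor, had 66.4 and 97.4 in the controls, against 29.5 and 14.9 in the knockouts. Eef1e1, the gene of lowest p in the elongation factor list, had 46.9 and 229 in the controls, against 50.9 and 52.0 in the knockouts. Among the remaining lists the lowest p was that of Twistnb (342, 158, 514 and 491 fragments), Tsc1 (33, 6, 64 and 169), Snhg6 (12, 0, 84 and 57), Mrpl19 (331, 768, 240 and 171) and the pseudogene Rpl9-ps3 (0, 0, 11 and 44), in controls 1 and 2 and knockouts 1 and 2. Of 66 ribosomal protein pseudogenes tested, 58 were negative, with a median of -0.86, but without control 2 it was 27 of 70, with a median of 0.09. Summed over all 291 listed pseudogenes, the level was 2.66 times as high in control 2 as in control 1.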

How the data were processed

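Per the file headers, the deposited tables hold raw fragment counts per exon entry, made by the authors with featureCounts 2.0.1 (pairs with both ends mapped, not chimeric, without strand) on GENCODE M23 and GRCm38. Trim Galore 0.6.7 and STAR 2.7.9a are named in the submitters' processing notes, and the treatment of duplicates is not stated. Counts were summed over the exon entries of each gene, 181 of the 55335 identifiers had no symbol, and 0 columns belonged to other samples. Transcript types came from GENCODE M21, in which 99.7% of entries had the same gene and coordinates. Most fragments overlapping more than 1 entry were not counted, though 12 member entries with no base of their own held 942 fragments. Knockout was compared with control in edgeR 4.0.16 (R 4.3.3, filterByExpr at 10, TMM, quasi-likelihood test, two-sided, adjusted over 12434 genes at 0.05). DESeq2 1.42.0, limma 3.58.1 and other settings were the alternatives. The edgeR fit was first run on simulated data in which libraries of a genotype shared a common profile. That run does not show what the test could find in these libraries. Within-genotype differences used log2(CPM + 0.5). Chi-square per degree of freedom between libraries was 46.1 to 197.3, so no library was a copy of another. Named members are the 5 of highest mean CPM in each subunit, the 5 of lowest p in each direction, paralogues with partners, members of role lists, those without fragments and, of each related list, the gene of lowest p; Rack1, Rpl12, Rpl26 and members listed by how the libraries fell were singled out after their values were seen. Members and lists were chosen with earlier results of these data known. A few genes are not reported here.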

Additional observations from a re-analysis of the deposited data

How the results depend on the processing

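No member was called under any of the 13 alternative fits. Over all genes, DESeq2 called 17 and the fit without a low-count filter called 27, and leaving out each library in turn gave 0 to 4 calls. The large over small subunit ratio was 2.10, 2.23, 2.26 and 1.79 (controls 1 and 2, knockouts 1 and 2) without Rpl4 and Rps3a1, and 2.13, 1.80, 2.06 and 1.91 without retained-intron exons. The median over all genes, 0.20, was 0.09 with totals alone as scaling, where the members' median was -0.41, and 0.44 with limma-voom, where it was -0.23. Without control 1 it was 1.72, with members at -0.57. No paired analysis was possible because the labels give no replicate numbers and name no shared animal, litter or day. The causes of these shifts were not tested.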
